A study of Mus musculus with 9 samples.

Results

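The NF-kB genes described here were 10: the subunits Rel, Relb and Nfkb2, the cytoplasmic inhibitors Nfkbia, Nfkbib and Nfkbie, the nuclear IkB proteins Nfkbiz and Bcl3, and the ubiquitin regulators Tnfaip3 and Tnip1. They are represented by every probe set, a group of short probes on an Affymetrix array, that the array annotation gives to these symbols alone. That made 20 probe sets of the 45101 on the array and 10 of the 18193 genes with a probe set of their own, and all 20 passed the filter on dim signals. RNA was taken from ear skin of C57BL/6 mice 6 h after a chemical was applied to the skin. DNFB (dinitrofluorobenzene, labelled as the allergen) or BAC (benzalkonium chloride, labelled as the irritant) went on the right ear, and acetone and olive oil, the vehicle, on the left ear, with 3 arrays per treatment. The side of the ear therefore went with the treatment and cannot be told apart from it. The labels give no dose, age, sex or genotype beyond the strain. They do not state whether the arrays of a group came from separate animals, so p-values may measure technical spread alone. Nor do they state whether vehicle and treated ears came from the same animals, and the fit treated the arrays as unpaired. The labels call DNFB an allergen and name no earlier exposure.

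NF-kB is a family of dimeric transcription factors held inactive in the cytoplasm by IkB proteins. Receptors for tumour necrosis factor, interleukin 1 and microbial products activate the IkB kinase, IKK, which marks IkB for destruction, and the freed dimers enter the nucleus and switch on inflammatory genes. Many of the genes they switch on encode their own brakes, among them IkB-alpha (Nfkbia) and the ubiquitin-editing enzyme A20 (Tnfaip3), which is why the messages for these brakes are often read beside those of cytokines. In skin the pathway is active in keratinocytes, in resident immune cells and in the leukocytes that enter an irritated site.

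The members were chosen with all 3 comparisons known, so their values are given as a description, without p-values, and no count of members is a test. A probe set is called higher or lower where limma's moderated test over all 29995 tested probe sets, with Benjamini-Hochberg adjustment, passed 0.05. Signals are linear MAS5 intensities. Differences are on the log2(signal + 16) scale, where the added 16 understates the change of dim genes, and are given with their standard error from the fit over 9 arrays. Levels are compared within a probe set and never between probe sets.

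The 10 genes are described in 3 groups set by which differences were called, which need not be distinct patterns of expression. Tnfaip3 and Nfkbia were lower after DNFB and higher after BAC than after the vehicle, Nfkbiz was higher after either chemical, and Rel, Relb, Bcl3, Tnip1, Nfkbie and Nfkb2 were called higher after BAC and were not called after DNFB. Nfkbib was called higher after either chemical on 1 of its 2 probe sets. Nfkb2 was called higher after BAC on 1 of its 2, and Nfkbia lower after DNFB on 4 of its 5. Among genes not called after DNFB, Tnip1 (-0.33 ± 0.13) and Relb (-0.23 ± 0.15) had every DNFB array below every vehicle array. On their brightest probe sets Rel (0.44 ± 0.22), Bcl3 (0.68 ± 0.28) and Nfkb2 (0.30 ± 0.18) differed upwards and Nfkbie (-0.14 ± 0.23) downwards, with overlapping arrays. By 1 probe set per gene, that with the highest mean, 10 of 10 members were higher and 0 lower after BAC than after the vehicle, against 5.89% and 6.43% of the 14127 tested genes. After DNFB 2 of 10 were higher and 2 lower than after the vehicle, against 6.02% and 6.29% of tested genes. Against BAC, 7 of 10 were lower and 0 higher after DNFB, against 3.25% and 2.47%. Every BAC array was above every vehicle array for 10 of 10 members, against 14.9% of tested genes, and every DNFB array below every vehicle array for 4, against 15.6%. The 3 contrasts share arrays, and the members were picked on them, so nothing is read from these shares. The median log2 difference over the 10 members was 0.08 for DNFB against vehicle (range -1.05 to 1.30), 0.99 for BAC against vehicle (range 0.72 to 2.34) and -1.16 for DNFB against BAC (range -3.39 to -0.19). The medians over all tested genes were 0.00, -0.03 and 0.03.

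**Figure D1:**
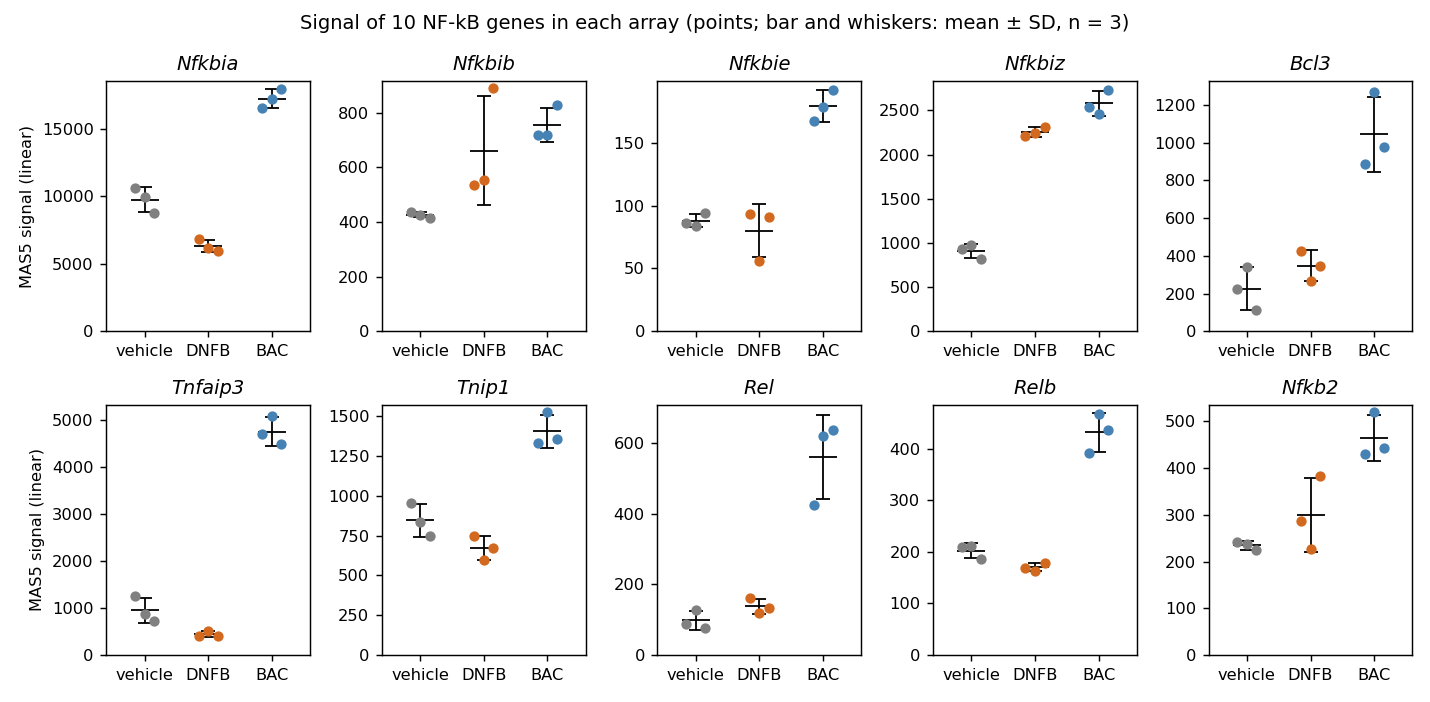
Signal of each member (linear MAS5 units, axis from 0) in the 9 arrays by treatment, 1 panel per gene for its brightest probe set; points are arrays, and bars and whiskers are the mean and SD of 3 arrays. The BAC arrays lie above the vehicle arrays in 10 of 10 panels, and the DNFB arrays lie below the vehicle arrays in 4, among them Tnfaip3 and Nfkbia.

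The DNA before the start of these genes is shown because NF-kB dimers recognise a short DNA motif, whose letters can be searched for there. Binding was not measured. The calls of the members can be set beside the matches. Windows of 250 bases before the annotated start were taken from RefSeq (GRCm38.p6), which held 11 windows for 8 members; Nfkbiz and Relb had none in the table used. Capitals mark matches to the kB consensus motif (a run of G, a purine, any bases, pyrimidines and a pair of C), searched on both strands, with overlapping matches merged into 1 run. Tnfaip3 and Nfkbia are shown for the genes that fell after DNFB, Rel and Tnip1 for genes called after BAC alone, and Nfkbib for a member with no match.

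Tnfaip3, chr10:19015411-19015660, minus strand: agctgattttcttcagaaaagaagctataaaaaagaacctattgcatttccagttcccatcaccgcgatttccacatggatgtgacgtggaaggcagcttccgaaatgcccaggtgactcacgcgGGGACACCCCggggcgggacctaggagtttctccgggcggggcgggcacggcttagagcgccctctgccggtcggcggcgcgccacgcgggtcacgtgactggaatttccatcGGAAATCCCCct

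Nfkbia, chr12:55492648-55492897, minus strand: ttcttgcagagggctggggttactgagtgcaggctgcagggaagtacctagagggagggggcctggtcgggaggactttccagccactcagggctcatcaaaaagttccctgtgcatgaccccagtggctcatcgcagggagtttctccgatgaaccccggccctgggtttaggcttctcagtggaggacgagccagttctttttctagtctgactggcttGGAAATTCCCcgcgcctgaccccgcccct

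Tnip1, chr11:54962941-54963190, minus strand: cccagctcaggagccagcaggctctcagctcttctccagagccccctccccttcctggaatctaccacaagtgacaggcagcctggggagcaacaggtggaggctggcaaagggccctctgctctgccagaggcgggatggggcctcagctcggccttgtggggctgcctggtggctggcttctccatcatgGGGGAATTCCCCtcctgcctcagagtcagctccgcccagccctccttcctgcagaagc

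Rel, chr11:23770970-23771219, minus strand: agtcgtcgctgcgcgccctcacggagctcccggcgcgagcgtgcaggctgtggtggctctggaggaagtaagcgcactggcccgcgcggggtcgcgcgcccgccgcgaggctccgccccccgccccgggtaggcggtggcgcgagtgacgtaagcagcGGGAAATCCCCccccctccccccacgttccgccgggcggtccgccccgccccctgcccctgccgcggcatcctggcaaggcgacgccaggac

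Nfkbib, chr7:28766645-28766894, minus strand: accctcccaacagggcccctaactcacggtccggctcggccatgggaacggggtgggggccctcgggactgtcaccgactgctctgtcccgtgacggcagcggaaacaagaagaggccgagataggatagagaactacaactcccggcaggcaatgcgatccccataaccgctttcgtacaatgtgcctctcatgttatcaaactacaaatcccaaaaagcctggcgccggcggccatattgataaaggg

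In the printed Tnfaip3 window the matches were GGGACACCCC, ending 116 bases before the start, and GGGGATTTCC on the opposite strand within the last 12 bases. A second Tnfaip3 window, not printed, held 0 matches. Nfkbia held GGGAATTTCC on the opposite strand, 29 to 20 bases before the start. Rel held GGGAAATCCC, 92 to 83 bases before it, and Tnip1 held GGGAATTCCC, 57 to 48 bases before it. Nfkbie held GGGGGATTCC, 106 to 97 bases before its start, and the first Nfkb2 window held GGGAATTCCC, 39 to 30 bases before, and GGGGCTTTCC in its last 11 bases. The motif was present in 8 of the 11 member windows and in 2382 of all 32851 windows, which is 7.25%. By gene it was present in 6 of 8 members and in 8.23% of all genes in the table. With the first 50 bases after the start included, Bcl3 had a match too, GGGAAGTCCC, which made 7 of 8 genes against 9.55% of all genes in the table. GC content of the printed windows ran from 58% in Nfkbib to 77.6% in Rel. A match is a stretch of letters and shows no binding, and its lack in Nfkbib says only that these letters are not in that window. Matches were found both in Tnfaip3 and Nfkbia, which fell after DNFB, and in Rel, Tnip1, Nfkbie and Nfkb2, which were not called there.

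Among the cytoplasmic inhibitors, Nfkbia encodes IkB-alpha, the inhibitor that is destroyed and remade fastest during signalling. It was the member with the most probe sets, 5. The brightest, 1420088_at, gave 10617, 9932 and 8762 in the vehicle arrays, 6824, 6180.5 and 5951 after DNFB and 16551, 17195 and 17959.7 after BAC. The 3 treatments did not overlap on it: every DNFB array was below every vehicle array, and every BAC array above. Its level after DNFB was 0.647 times the vehicle level, a log2 difference of -0.63 ± 0.10, and after BAC 1.76 times, 0.82 ± 0.10, so DNFB and BAC stood apart by -1.45 ± 0.10. Probe set 1448306_at read 4901 ± 599.5 in the vehicle, 2319 ± 74.1 after DNFB and 8555 ± 391 after BAC (mean ± SD, n = 3 arrays each). Its differences from the vehicle were -1.07 ± 0.10 and 0.81 ± 0.10. The 4 brighter probe sets were all called in each comparison, with log2 differences from -0.63 to -1.09 after DNFB and from 0.81 to 1.23 after BAC. The dimmest, 1420089_at, read 379.6, 283 and 322 in the vehicle, 283, 261 and 191 after DNFB and 545, 779.7 and 509.9 after BAC. Here DNFB was not called (-0.41 ± 0.19), while BAC was (0.85 ± 0.19), a call that did not hold without BAC replicate 2 (0.67) or without an intensity trend. Across the 9 arrays the 5 probe sets correlated with r between 0.883 and 0.982 over their 10 pairs, which is a description of probes on the same arrays.

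Nfkbib encodes IkB-beta, a slower inhibitor of the same family. Probe set 1421266_s_at read 435, 427 and 416 in the vehicle, 537, 555 and 893 after DNFB and 717, 721 and 829 after BAC. Both chemicals gave arrays above all vehicle arrays, and DNFB and BAC overlapped because DNFB replicate 3 was the highest of the 9. The differences from the vehicle were 0.58 ± 0.17 after DNFB and 0.80 ± 0.17 after BAC, both called, and -0.22 ± 0.17 between them, not called. Without DNFB replicate 3 the DNFB difference was 0.35 and did not pass, and it also failed to pass without any 1 of the vehicle arrays or without BAC replicate 1 or 2 (0.56 to 0.59). With both probe sets averaged neither difference passed, at 0.25 after DNFB and 0.16 after BAC, and without an intensity trend in the fit neither passed. The other probe set, 1446718_at, was dim and read 95.8 ± 31.4, 87.5 ± 20.5 and 73.4 ± 48.2 in vehicle, DNFB and BAC. It was not called in any comparison, its groups overlapped, and it did not follow the first, with r = -0.364 across the 9 arrays.

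Nfkbie encodes IkB-epsilon, an inhibitor known to hold Rel and RelA dimers. On probe set 1431843_a_at the vehicle arrays read 86.3, 83.7 and 93.8, the DNFB arrays 93.7, 56.1 and 90.8 and the BAC arrays 167, 179 and 192. The BAC arrays lay above all others and the DNFB and vehicle arrays overlapped. BAC was called at 0.91 ± 0.23 against the vehicle, DNFB differed by -0.14 ± 0.23, not called, and DNFB against BAC was called at -1.05 ± 0.23. These calls rested on few arrays: the first did not pass without any 1 of the vehicle arrays (0.88 to 0.95) or without BAC replicate 2 (0.91) or 3 (0.86), and the last did not pass without DNFB replicate 2 (-0.85) or BAC replicate 2 (-1.05) or 3 (-0.999). The second probe set, 1458299_s_at, read 46.2 ± 22.6 in the vehicle, 31.6 ± 3.64 after DNFB and 178 ± 32.8 after BAC. It stood above the 40th percentile of its array in 1 vehicle array, 0 DNFB arrays and 3 BAC arrays, so it entered the test through the group where it was high, and its difference of 1.68 ± 0.33 carries no weight as a call.

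Of the nuclear IkB proteins, which act on promoters with NF-kB dimers instead of holding them in the cytoplasm, Nfkbiz encodes IkB-zeta, an activator needed for a later set of inflammatory genes. Probe set 1417483_at read 926, 971 and 818 in the vehicle, 2205, 2240.4 and 2316 after DNFB and 2540.4, 2459 and 2737 after BAC. Every array of either chemical was above every vehicle array, and every DNFB array was below every BAC array. DNFB stood at 2.49 times the vehicle level, 1.30 ± 0.10, and BAC at 2.85 times, 1.50 ± 0.10. The difference between DNFB and BAC, -0.19 ± 0.10, was not called. The other probe sets gave the same order of means, with 0.98 ± 0.14 after DNFB and 1.31 ± 0.14 after BAC on 1448728_a_at, and 0.53 ± 0.16 and 1.06 ± 0.16 on 1457404_at. On both, all DNFB arrays lay below all BAC arrays, by -0.32 ± 0.14 and -0.53 ± 0.16, and neither difference was called. The DNFB call of 1457404_at did not hold without vehicle replicate 1 (0.53) or 3 (0.40), without any 1 DNFB array (0.48 to 0.59), without BAC replicate 1 or 3 (0.53), or in 6 other settings. The 3 probe sets correlated with r between 0.885 and 0.973.

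Bcl3 encodes the other nuclear IkB protein, which pairs with p50 and p52 dimers. Its probe set, 1418133_at, read 223, 341 and 113 in the vehicle, 428, 265 and 348 after DNFB and 889, 1269.8 and 979 after BAC. The BAC arrays were above all others, while DNFB and vehicle overlapped. BAC stood at 4.64 times the vehicle level, 2.24 ± 0.28, and DNFB was -1.56 ± 0.28 from BAC, both called. DNFB against the vehicle, 0.68 ± 0.28, was not called, and without vehicle replicate 2, the highest of its group, it was 1.02 and passed. The DNFB against BAC call did not hold without an intensity trend.

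Tnfaip3 encodes A20, which removes and edits the ubiquitin chains that carry the signal from receptors to IKK. It lies on chromosome 10 (GRCm38.p6, 19000910 to 19015410). Probe set 1433699_at read 1245, 882 and 719.9 in the vehicle, 409, 512 and 399 after DNFB and 4697, 5095 and 4483 after BAC. The groups did not overlap, and the lowest BAC array was above the highest vehicle array. DNFB stood at 0.464 of the vehicle level, -1.05 ± 0.16, and BAC at 5.01 times it, 2.34 ± 0.16. Between DNFB and BAC lay -3.39 ± 0.16, the largest of the 20 probe sets in that comparison, which puts DNFB at 0.0925 of the BAC level. The second probe set, 1450829_at, read 196 ± 58.0 in the vehicle, 44.2, 108 and 129.8 after DNFB and 951 ± 150.2 after BAC. It gave -1.01 ± 0.28, 2.21 ± 0.28 and -3.22 ± 0.28, and correlated with the first at r = 0.965. Its DNFB call did not hold without DNFB replicate 1 (-0.62), vehicle replicate 1 (-0.82) or vehicle replicate 3 (-0.98), and in 4 other settings.

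Tnip1 encodes ABIN1, a ubiquitin-binding partner of A20. Its probe set, 1427689_a_at, read 957, 836 and 750.0 in the vehicle, 745, 594 and 673 after DNFB and 1330.2, 1527 and 1359.7 after BAC. The 3 groups did not overlap. BAC was called above the vehicle at 0.72 ± 0.13, the smallest BAC difference among the members' brightest probe sets, and DNFB was called below BAC at -1.05 ± 0.13. DNFB against the vehicle, -0.33 ± 0.13, was not called.

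**Figure D2:**
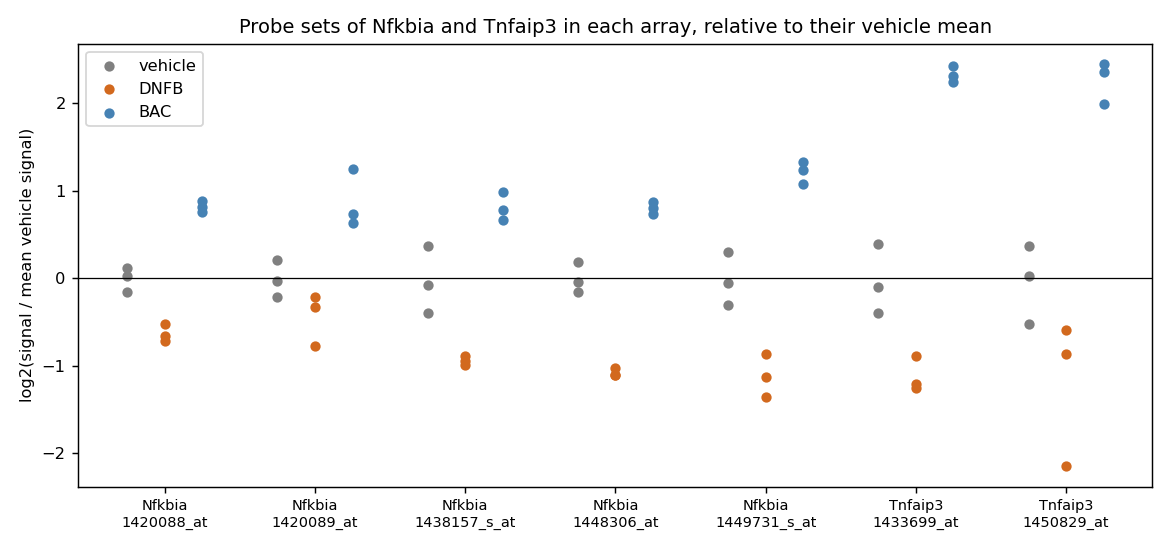
Log2 of the signal over the probe set's mean vehicle signal (vertical axis) for the 5 Nfkbia and 2 Tnfaip3 probe sets (horizontal axis), 1 point per array, coloured by treatment. On 6 of the 7 probe sets DNFB was called lower and BAC higher than the vehicle; the exception, Nfkbia 1420089_at, was called for BAC alone.

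Among the subunits, Rel encodes c-Rel, the subunit known best from lymphocytes and myeloid cells. Probe set 1420710_at read 88.9, 129 and 76.5 in the vehicle, 160.2, 118 and 134 after DNFB and 425, 619.7 and 637 after BAC. The BAC arrays lay far above the others, and DNFB and vehicle overlapped. BAC stood at 5.72 times the vehicle level, 2.34 ± 0.22, and DNFB -1.90 ± 0.22 from BAC, both called, while DNFB against the vehicle, 0.44 ± 0.22, was not. Relb encodes the partner of p52 in the alternative pathway. Its probe set, 1417856_at, read 209, 212 and 186 in the vehicle, 168, 164 and 179 after DNFB and 393, 468 and 436 after BAC. The groups did not overlap, with DNFB lowest. BAC was called at 1.04 ± 0.15 against the vehicle and DNFB at -1.26 ± 0.15 against BAC, and DNFB against the vehicle, -0.23 ± 0.15, was not called.

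Nfkb2 encodes p100, which is both an inhibitor of RelB and the precursor of p52. On probe set 1425902_a_at the vehicle arrays read 241, 238 and 224, the DNFB arrays 287, 226 and 384 and the BAC arrays 431, 521 and 442. The BAC arrays were above all others and DNFB overlapped the vehicle. BAC was called at 0.94 ± 0.18, and DNFB, at 0.30 ± 0.18 from the vehicle, was not. DNFB against BAC was -0.63 ± 0.18 and not called, and without DNFB replicate 3 it was -0.82 and passed. It also passed with 64 added to signals (-0.56), with a 60th percentile filter or with 1 probe set per gene (-0.63). The other probe set, 1429128_x_at, whose name marks probes that can match other transcripts, read 221 ± 61.3, 235 ± 32.1 and 309 ± 41.2 and was not called in any comparison. The 2 probe sets correlated at r = 0.677.

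**Figure D3:**
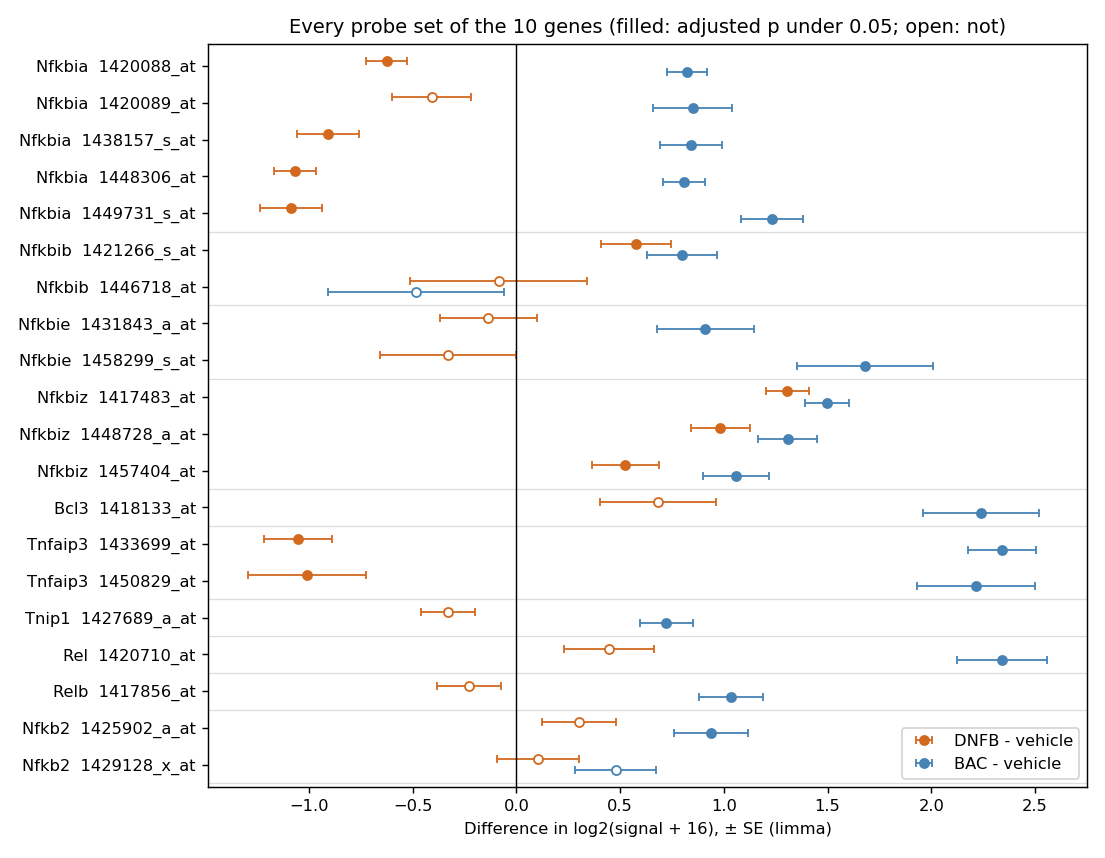
Difference in log2(signal + 16) from the vehicle for each of the 20 probe sets after DNFB and after BAC; whiskers are standard errors, and points are filled where called. After DNFB 4 points are called higher and 6 lower, and after BAC 18 are called higher and 0 lower.

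By probe set, the shares called among all tested were 4.63% higher and 5.80% lower after DNFB and 4.90% higher and 5.25% lower after BAC. Of the probe sets called after BAC 48.3% were higher, and 35.1% when each array was centred on its median. The 18 member probe sets called after BAC include 1458299_s_at of Nfkbie, which entered through its BAC arrays. On 18 of the 20 member probe sets every DNFB array was below every BAC array, where 11.8% of tested probe sets had that order. The exceptions were the probe sets of Nfkbib, where the groups overlapped. The number of probe sets per gene was unequal, 5 for Nfkbia and 1 each for Bcl3, Tnip1, Rel and Relb, so a count of probe sets weighs Nfkbia most.

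The members followed one another to different degrees across the 9 arrays. By Pearson's r over log2 values of 1 probe set per gene, Tnfaip3 was most like Nfkbia (0.982), Relb (0.977) and Tnip1 (0.970) among the members, then Nfkbie (0.887), Rel (0.850), Bcl3 (0.761) and Nfkb2 (0.711). Nfkbib (0.386) and Nfkbiz (0.327) were least like it. For Nfkbia, after Tnfaip3 itself, the other members ran from Tnip1 (0.974) and Relb (0.952) to Nfkbib (0.275) and Nfkbiz (0.200). Of the 14117 tested genes outside the members, the 5 most like Tnfaip3 were Cd83 (0.993), Dusp6 (0.984), Slc10a6 (0.980), Cdcp1 (0.975) and Il7r (0.973). Those most like Nfkbia were Spry1 (0.985), Cd83 (0.984), Dusp6 (0.976), Cdcp1 (0.973) and Slc10a6 (0.968). Cd83, a surface protein of activated dendritic cells and other leukocytes, read 429.7, 400.4 and 269.6 in the vehicle, 198, 184 and 192 after DNFB and 1410.2, 1361 and 1173 after BAC. Dusp6 and Spry1 encode inhibitors of growth factor signalling through ERK. These values describe 9 arrays in 3 treatments, which all genes share, and 14117 genes were searched.

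The other pathway genes were taken from 5 lists, 97 genes, of which 80 were tested. Against the vehicle 17 of 80 were higher and 7 lower after DNFB, with a median log2 difference of 0.08, and 36 were higher and 0 lower after BAC, with a median of 0.57. After DNFB 29 of 80 were lower than after BAC and 0 higher, with a median of -0.47. Of all 14127 tested genes, 6.02% were higher and 6.29% lower after DNFB than after the vehicle, and 5.89% and 6.43% after BAC. Against BAC, 3.25% were lower and 2.47% higher after DNFB. The medians over all tested genes were 0.00, -0.03 and 0.03. Adjusted p-values here are from limma over all tested probe sets. The lists were chosen with earlier results of these data known, and most genes are named because they passed. Their p-values are therefore given as a description, and no count of a list is a test.

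Of the 2 tested genes in the list of remaining subunits and nuclear IkB proteins, Rela encodes the main activating subunit, p65. It read 1715, 1665 and 1241 in the vehicle, 2046, 1989.9 and 2049 after DNFB and 2781, 2466 and 2564 after BAC. The groups did not overlap. BAC was higher by 0.76 ± 0.12 (limma adjusted p = 0.000816) and DNFB by 0.41 ± 0.12 (adjusted p = 0.0449), and the latter did not pass in 12 of the alternatives run, among them without vehicle replicate 3 (0.26), without any 1 DNFB array (0.40 to 0.42) and without any 1 BAC array (0.41). Nfkbid, which encodes a nuclear IkB protein, did not pass, with 0.67 ± 0.23 after BAC (adjusted p = 0.0809) and 0.03 ± 0.23 after DNFB (adjusted p = 0.965). Nfkb1 was not analysed here.

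Of the 24 tested genes of the IKK complex and its adaptors, 1 was higher and 2 lower after DNFB, and 6 were higher after BAC. The shares of all tested genes were 6.02%, 6.29% and 5.89%, so the DNFB counts were near them and nothing is read from those counts. Birc3 encodes cIAP2, a ubiquitin ligase of the receptor complex. It read 450.5 ± 44.8 in the vehicle, 533 ± 53.9 after DNFB and 1852 ± 212 after BAC, which is 2.0 ± 0.13 for BAC against the vehicle (limma adjusted p = 1.72e-07) and -1.76 ± 0.13 for DNFB against BAC (adjusted p = 1.96e-06). Myd88, the adaptor of Toll-like and interleukin 1 receptors, rose by 1.08 ± 0.13 after BAC (adjusted p = 7.51e-05), and Map3k14, the kinase NIK of the alternative pathway, by 0.91 ± 0.17 (adjusted p = 0.00261). Birc2, which encodes cIAP1, rose after either chemical, by 0.52 ± 0.14 after DNFB (adjusted p = 0.025) and 0.58 ± 0.14 after BAC (adjusted p = 0.0138). After DNFB Map3k8, at -0.71 ± 0.21 (adjusted p = 0.0403), and Tab3, at -0.70 ± 0.17 (adjusted p = 0.0158), fell. Every DNFB array was below every vehicle array for Tab3, while the arrays overlapped for Map3k8. Irak2, a kinase of the Myd88 complex, differed by -0.66 ± 0.18 for DNFB against BAC (adjusted p = 0.0426). The calls of these last 4 genes were fragile: Birc2 did not pass after DNFB without vehicle replicate 1 (0.48) or 3 (0.51) or DNFB replicate 2 (0.45) or 3 (0.51), nor after BAC without vehicle replicate 1 (0.54) or BAC replicate 1 (0.51) or 2 (0.56), Map3k8 without vehicle replicate 1 (-0.69) or 2 (-0.51), DNFB replicate 1 (-0.65) or 3 (-0.61) or BAC replicate 1 (-0.71), and Tab3 without vehicle replicate 1 (-0.72) or 2 (-0.59). The Irak2 call was lost without vehicle replicate 3 (-0.66), DNFB replicate 2 (-0.57) or 3 (-0.66), or any 1 BAC array (-0.59 to -0.71). With no array left out, both Birc2 calls were lost with arrays centred on the median or without an intensity trend. Map3k8 and Irak2 were lost in those settings too, without a filter and with quantile normalization. Map3k8 was also lost with only the groups compared, and Irak2 with a replicate block.

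Among the 16 tested other inhibitors and deubiquitinases, 0 rose and 1 fell after DNFB and 2 rose after BAC. The shares of all tested genes were 6.02%, 6.29% and 5.89%, and nothing is read from counts this small. N4bp1 was lower after DNFB, at -0.52 ± 0.15 (limma adjusted p = 0.0371), a call lost without any 1 vehicle array (-0.47 to -0.57), DNFB replicate 2 (-0.40) or BAC replicate 2 (-0.52). The N4bp1 call was also lost with probe sets averaged (-0.30), quantile normalization (-0.44), median centring (-0.53), no intensity trend or only the groups compared (-0.52). Zc3h12a, which encodes regnase-1, a nuclease that degrades cytokine messages, rose after BAC by 0.81 ± 0.16 (adjusted p = 0.0037), but with the mean of its probe sets in place of the brightest it did not, at 0.07. Irak3, a decoy kinase that inhibits Myd88 signalling, rose by 0.79 ± 0.18 (adjusted p = 0.0107), which did not pass without vehicle replicate 1 (0.73) or BAC replicate 2 (0.65). The median over the 16 was 0.00 after DNFB and 0.23 after BAC.

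Of 12 tested receptors, 3 rose after DNFB and 5 after BAC, against 6.02% and 5.89% of all tested genes. Tnfrsf12a, the TWEAK receptor, rose by 1.54 ± 0.15 and 1.44 ± 0.15 (limma adjusted p = 8.12e-06 and 1.12e-05). Tnfrsf1b, a receptor for tumour necrosis factor, rose by 0.86 ± 0.19 and 1.12 ± 0.19 (adjusted p = 0.00851 and 0.00134), where the DNFB call did not pass with its probe sets averaged (0.72), and Il1r1, the interleukin 1 receptor, by 0.98 ± 0.13 and 0.74 ± 0.13 (adjusted p = 0.000135 and 0.00153). Tlr2, a receptor for bacterial lipoproteins, differed between the chemicals, at 1.34 ± 0.17 after BAC against the vehicle (adjusted p = 9.81e-05) and -1.29 ± 0.17 for DNFB against BAC (adjusted p = 0.000308).

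Of 26 tested NF-kB target genes, 12 rose and 4 fell after DNFB, against 6.02% and 6.29% of all tested genes. After BAC 22 rose and 0 fell, against 5.89% and 6.43%, and 22 were lower after DNFB than after BAC, against 3.25%. Both counts of 22 include Csf3, which was above the 40th percentile of its array in 0 vehicle, 2 DNFB and 3 BAC arrays. It passed the filter only with its BAC arrays, where it was high, so its calls carry no weight. The medians over the 26 were 0.66, 1.98 and -1.40. The cytokine Il6 rose by 4.07 ± 0.21 after DNFB (limma adjusted p = 2.84e-08) and by 5.34 ± 0.21 after BAC (adjusted p = 1.55e-09), so that it rose after DNFB while Nfkbia and Tnfaip3 fell. Il1b, another inflammatory cytokine, rose by 2.51 ± 0.18 after DNFB (adjusted p = 4.66e-07) and 4.16 ± 0.18 after BAC (adjusted p = 1.65e-09). Among neutrophil chemokines, Cxcl1 rose by 2.44 ± 0.25 after DNFB (adjusted p = 1.47e-05) and 3.40 ± 0.25 after BAC (adjusted p = 3.8e-07), and Cxcl2 by 2.23 ± 0.34 (adjusted p = 0.000565) and 3.79 ± 0.34 (adjusted p = 3.27e-06). The 4 that fell after DNFB were Ccl20, Cd83, Il1a and Bcl2l1. Il1a read 137, 139 and 127 in the vehicle and 119, 28.5 and 14.6 after DNFB. It was above the 40th percentile of its array in 1 DNFB array, so its fall rests on dim signals. Ccl20, a chemokine for dendritic and T cells, read 836, 1377 and 363 in the vehicle, 323, 96.4 and 147 after DNFB and 1485, 3738 and 2172 after BAC, with the DNFB arrays lowest and the BAC arrays highest. It differed by -3.65 ± 0.43 for DNFB against BAC (adjusted p = 0.00013). Cd83 was also lower after DNFB than after BAC, by -2.68 ± 0.17 (adjusted p = 3.23e-07). Sele, the endothelial adhesion molecule E-selectin, rose by 2.86 ± 0.23 after BAC (adjusted p = 8.41e-07) and was -0.08 ± 0.23 from the vehicle after DNFB (adjusted p = 0.889).

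**Figure D4:**
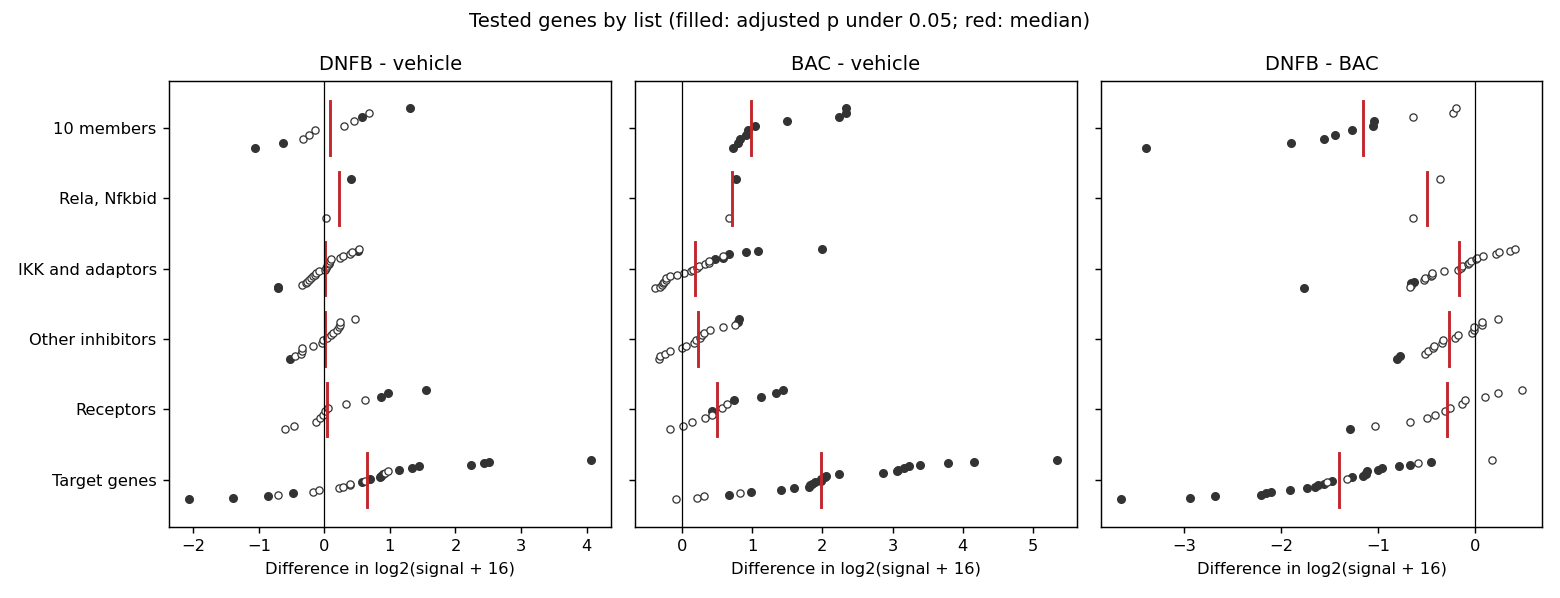
Log2 differences of the members and of the tested genes of each pathway list, 1 point per gene (filled where called, red line at the list's median), in 1 panel for each of the 3 comparisons; the horizontal axis is the difference in log2(signal + 16). The NF-kB target list has the widest spread, with medians of 0.66 after DNFB and 1.98 after BAC.

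Some cell type markers and the RNA quality ratios differed between the treatments. Beside the counts below, 6.02% of all tested genes were higher and 6.29% lower after DNFB, and 5.89% and 6.43% after BAC. Nothing is read from lists with 1 or 2 markers called. Of 13 tested neutrophil markers, 7 were higher after DNFB and 9 after BAC, and their summed signal was 4137 to 9063 in the vehicle, 14909 to 24797 after DNFB and 23998 to 34030 after BAC. Of the 14 on the array, Camp was at or below the 40th percentile in all 9 arrays. Of 11 monocyte and macrophage markers, 4 and 5 were higher, with summed signals of 10874 to 12635, 13781 to 15280.1 and 16252 to 17034. Of 11 keratinocyte markers, 9 were lower after DNFB and 6 after BAC, with sums of 75682 to 84165, 62962 to 73159 and 72224 to 72971, and none of them was at or below the 40th percentile in all 9 arrays. In whole skin, fewer cells of a type and less RNA per cell cannot be told apart. Of 9 Langerhans and dendritic cell markers, 1 was lower after DNFB and 2 were higher after BAC. In all, 5 of 8 skeletal muscle markers and 3 of 7 mast cell markers were higher after DNFB, and 0 in either list after BAC. Of 6 T cell markers 0 were called after DNFB and 1 was higher after BAC, and of 4 B cell markers 0 were called after either chemical. Of 7 endothelial markers 2 were higher after DNFB and 1 after BAC, and of 7 fibroblast markers 1 and 0, with summed signals of 56472 to 65427 in the vehicle, 71453 to 81873 after DNFB and 65150.2 to 75757 after BAC. The ratio of 3' to 5' actin probe signals ran from 1.05 to 1.10 in the vehicle, 1.09 to 1.28 after DNFB and 1.18 to 1.22 after BAC, and every BAC array was above every vehicle array. For Gapdh the ratio ran from 0.856 to 0.880 in the vehicle, 0.841 to 1.36 after DNFB and 0.917 to 0.932 after BAC. DNFB replicate 2 had the highest value of both ratios, and the other DNFB arrays had Gapdh ratios of 0.841 and 0.943. The part of these markers and ratios in the members' differences was not tested. Between arrays of one treatment, log2 signals over all probe sets correlated with r of 0.935 to 0.966, and between treatments with r of 0.925 to 0.948, so the ranges overlapped.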

How the data were processed

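Ear skin RNA was converted to biotinylated cRNA (3' IVT Express) for Affymetrix arrays, per the labels' protocols. Each deposited value is a linear intensity, the MAS5 signal of 1 probe set on 1 array. Per the submitters' processing notes, MAS5 and the Affymetrix Expression Console were used, in versions not given in the sources used here. A trimmed mean of 250.001 in each array shows that the arrays had been scaled to one target, which assumes equal total signal, and array medians ran from 71.2 to 86.3. The small number of arrays limits the precision.

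Signals were transformed as log2(signal + 16). After leaving out 64 control probe sets and those not above the 40th percentile of their array in at least 3 of 9 arrays, 29995 were fitted in limma 3.58.1 under R 4.3.3 (lmFit and eBayes with trend = TRUE, on 6 residual degrees of freedom with a prior of 9.19) with 1 mean per treatment, two-sided, with Benjamini-Hochberg adjustment over all of them. With 3 arrays per group, no exact permutation p can be under 0.1, so none was computed. The platform annotation gave 34945 probe sets 1 symbol and 932 several, and 9160 were unlisted; a gene's brightest probe set stood for it in gene counts. Promoter windows are RefSeq's.

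The members, lists and tests were chosen with earlier results of these data known. Every member probe set is reported; from each pathway list and comparison, the rule named up to 3 called genes with the largest difference, and Rela, Nfkb1 and Nfkbid whatever their values. Il1a and Bcl2l1 were named after their values were seen. For Tnfaip3 and Nfkbia it named the 5 genes most alike. Alternatives were other pseudocounts, filters, normalizations, fits, probe set rules, a replicate block and each array left out. Deviations from group means correlated with r from -0.06 to 0.11 between same-numbered arrays of different treatments, and from -0.11 to 0.09 between other pairs. The arrays were treated as unpaired, though this check cannot exclude a pairing, such as left and right ears of the same animal.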

Additional observations from a re-analysis of the deposited data

How the results depend on the processing

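The count of the 10 members called stayed between 3 and 4 for DNFB against vehicle, 9 and 10 for BAC against vehicle, and 6 and 8 for DNFB against BAC over all alternatives run. Counts over all tested probe sets moved more: DNFB against vehicle gave 3127 calls, with 1592 without an intensity trend, 1954 with 1 probe set per gene, 1633 with a gene's probe sets averaged, and 1816 to 3034 with 1 array left out (1885 without vehicle replicate 1 and 1816 without vehicle replicate 3). BAC against vehicle gave 3045, with 1608, 2009 and 1739 under those settings and 1690 to 3353 with 1 array left out (1690 and 1930 without vehicle replicate 1 and 3, 1951 and 1972 without BAC replicate 2 and 3). DNFB against BAC gave 1487, with 539, 961 and 806, 988 with arrays centred on the median, and 753 to 1462 with 1 array left out (984 without DNFB replicate 3, and 941, 753 and 986 without BAC replicate 1, 2 and 3). Fewer features were tested with 1 value per gene; the cause of the other changes was not tested. Centring on the median put the median of all tested probe sets at -0.11 for BAC against vehicle, where it was -0.02. Of the 80 tested pathway genes, 24 were called for DNFB against vehicle and 13 without an intensity trend, and 29 and 19 for DNFB against BAC. With the replicate block, 3008, 2884 and 1360 probe sets were called, and member counts were 4, 10 and 7 as without it. The calls lost among the members and named genes were DNFB against vehicle for Nfkbiz 1457404_at and DNFB against BAC for Tab3 and Irak2. In deviations from group means, 1 of 9 same-number pairs of arrays correlated above 0.1, against 0 of 18 other pairs. Deviations from means of 3 arrays cannot settle whether the arrays were paired.

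The sign turned only for differences that were not called. With probe sets averaged by gene, Nfkbib gave 0.25 for DNFB against vehicle and 0.16 for BAC against vehicle in place of the negative values of 1446718_at, and 0.0876 for DNFB against BAC, and Zc3h12a gave -0.94 for DNFB against vehicle, which passed. Centred on the median, Irak2 gave -0.0092 for DNFB against vehicle and Birc2 0.011 for DNFB against BAC, and Sele gave 0.0021 for DNFB against vehicle after quantile normalization. With 1 array left out, Nfkbib 1446718_at ran from -0.35 to 0.0616, -0.81 to 0.11 and -0.20 to 0.72 in the 3 comparisons. For DNFB against vehicle Nfkbie 1431843_a_at ran from -0.24 to 0.0594, Nfkb2 1429128_x_at from -0.0428 to 0.30, Nfkbid from -0.12 to 0.23, Irak2 from -0.21 to 0.17, Sele from -0.35 to 0.17, Tlr2 from -0.0208 to 0.10 and Zc3h12a from -0.0241 to 0.12. Tab3 ran from -0.15 to 0.0412 for BAC against vehicle, and for DNFB against BAC Birc2 ran from -0.16 to 0.0167 and Tnfrsf12a from -0.0158 to 0.25.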
